A study of Mus musculus with 8 samples.

Results

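Genes of glycolysis, lactate export and the hypoxia-inducible factor (HIF) response were examined in mouse buccal epithelium, the stratified lining of the cheek. The set was defined by name, with earlier results of these data known, and held 37 genes of the 22911 in the deposited table. All 37 passed the filter on low counts, as did 15098 genes in all. The study compared adult germ-free C57BL/6 mice, raised without microbes, with adult specific-pathogen-free (SPF) C57BL/6 mice, whose source labels read WT. Each group had 4 animals and 1 library per animal, neither group was treated, and no transgene or mutation is named for either. Epithelium was lifted from the oral mucosa with dispase II, its epithelial cells were sorted, and total RNA libraries were sequenced after ribosomal RNA depletion. The labels give no sorting gate, sex or hour of collection, and a difference between the groups in any of these and a difference in microbes cannot be told apart.

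Glycolysis splits glucose into pyruvate in the cytosol, and pyruvate is either reduced to lactate and exported or burned in mitochondria. HIF is a transcription factor whose alpha subunit is hydroxylated by oxygen-dependent EGLN enzymes and then destroyed, so that it builds up when oxygen is short. HIF raises glucose transporters and most glycolytic enzymes, and it also raises genes with no part in glucose use, such as those of mitophagy, vessel growth and collagen hydroxylation. A fall along glycolysis can therefore be set beside the HIF targets that lie outside glucose metabolism. Proliferating basal cells and differentiating suprabasal cells of a stratified epithelium both use glycolysis.

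HIF binds a short core in promoters, ACGTG or GCGTG, and the stretches below are shown because they hold that core upstream of genes with opposite outcomes in these data. Each is 45 bases read 5′ to 3′ on the gene's own strand, from RefSeq on GRCm38.p6. In each, capitals mark a single core, the upstream ACGTG nearest the gene's start, or CACGT where it lies on the other strand; further cores stay in lower case. The stretches came from chr4:119108689-119108733 (plus strand) for Slc2a1, chrX:106186949-106186993 (plus) for Pgk1, chr12:73907777-73907821 (plus) for Hif1a, chr12:54204079-54204123 (minus) for Egln3, chr7:138909589-138909633 (minus) for Bnip3, chr10:59951933-59951977 (minus) for Ddit4 and chr7:46845750-46845794 (plus) for Ldha.
Slc2a1: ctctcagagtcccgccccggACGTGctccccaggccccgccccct
Pgk1: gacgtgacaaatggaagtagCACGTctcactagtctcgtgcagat
Hif1a: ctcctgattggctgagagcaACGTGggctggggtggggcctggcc
Egln3: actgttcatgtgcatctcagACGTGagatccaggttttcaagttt
Bnip3: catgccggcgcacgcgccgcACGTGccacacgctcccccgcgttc
Ddit4: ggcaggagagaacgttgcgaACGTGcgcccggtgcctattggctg
Ldha: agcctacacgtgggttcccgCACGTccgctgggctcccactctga
The core starts 36 bases before the RefSeq start of Slc2a1, and 23 bases of that stretch lie in an exon of a longer GENCODE M21 transcript. The other 6 stretches touch no annotated exon. Further ACGTG cores in lower case lie in the Pgk1 and Ldha stretches, and further GCGTG cores in that of Bnip3. The palindrome CACGTG, which other basic helix-loop-helix factors also bind, holds the marked core in Bnip3 and lies beside it, in lower case, in Ldha.

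Promoter windows from 250 bases before to 50 bases after a RefSeq start were found for 36 of the 37 genes, with Ero1l listed there as Ero1a. ACGTG was present on either strand in 27 of the 36. It was present in 9 of the 12 genes called lower in germ-free mice, in 17 of the 23 not called and in the 1 called higher. Among 10420 tested genes with a window, 28.8% held it, and among all 27025 genes with a window, 21.8% did. GCGTG was present in 26 of the 36 genes, in 7 of the 12 called lower and in 18 of the 23 not called, against 55.4% of tested genes and 35.2% of all genes. CACGTG, which contains ACGTG, was present in 8 of the 36, against 11.5% of tested and 8.09% of all genes. The windows were not matched on base composition or on the number of starts per gene, and a match is a string of letters, not a bound site.

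Library totals ran from 10260264 to 15524731 counts. Levels are given as CPM, the count scaled to the size of its library by TMM, and fold changes are log2 values of germ-free over SPF with their standard error. The 8 epithelial markers, among them Krt5, Krt14 and Krt13, summed to 47300 to 57700 CPM in SPF and 44200 to 53500 CPM in germ-free libraries. The 12 stromal markers summed to 116 to 177 CPM in SPF and 177 to 884 CPM in germ-free libraries, the 884 CPM in germ-free 3, which stands apart. In SPF the largest were Sparc, Dcn and Thy1, with means of 76.2, 32.6 and 24.5 CPM. Of the 10 stromal markers tested, only Thy1 was called, and it was lower (10%, against 2.33% of all tested genes). Its log2 fold change was -0.70 ± 0.17 (adjusted p = 0.0383, edgeR). It was the 1 of the 10 below 0, and their median was 3.43. The 8 endothelial markers summed to 4.3 to 10.8 CPM and 11.3 to 111 CPM, and Emcn was at 0 in SPF 1, 3 and 4. The 8 proliferation markers summed to 2190 to 2750 CPM in SPF and 794 to 1520 CPM in germ-free libraries. Of the 8, 6 were called lower (75%, against 2.33% of all tested genes). Summed markers of red cells (0.801 to 7.84 against 1.4 to 3.81 CPM), muscle (4.73 to 7.12 against 4.18 to 12 CPM), leukocytes (3.13 to 7.33 against 3.53 to 16 CPM), and nerve and melanocytes (4.88 to 9.09 against 2.43 to 11.8 CPM) overlapped between SPF and germ-free libraries. The part of the stromal, endothelial and proliferation differences in the results that follow was not tested. In bulk RNA, fewer cells of a type and less RNA per cell cannot be told apart.

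Expression of the glucose transporter Slc2a1, of phosphofructokinase Pfkp, of the 6 enzymes of lower glycolysis in the set and of Hif1a, Egln1 and Egln3 was lower in germ-free epithelium. With edgeR's quasi-likelihood test and Benjamini-Hochberg adjustment over all tested genes, 12 of the 37 genes were called lower (32.4%), where 2.33% of all tested genes were. They were Slc2a1, Pfkp, Tpi1, Gapdh, Pgk1, Pgam1, Eno1, Pkm, Hif1a, Egln1, Egln3 and Bnip3. Ddit4 was the 1 gene called higher (2.7%, against 1.85% of all tested genes), and 24 genes were not called. Fitted log2 fold changes were below 0 in 30 of the 37, with a median of -0.209 where the median of all tested genes was 0.0209. Every germ-free library lay below every SPF library in 16 genes, which held for 6.84% of all tested genes. Every germ-free library lay above every SPF library in 2, Pfkfb2 and Ddit4, which held for 6.24%. Because the genes were chosen with earlier results of these data known, these shares describe the set and do not test it.

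In the authors' deposited table, made with DESeq2, 13 of the 37 genes had an adjusted p under 0.05 and were lower in germ-free mice, where 2.63% of genes with a p-value were. The additional gene was Aldoa. In the authors' deposited table Ddit4 and Pfkfb2, 2 of the 37, were higher, where 2.59% of genes were, and 22 were not called.

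**Figure D1:**
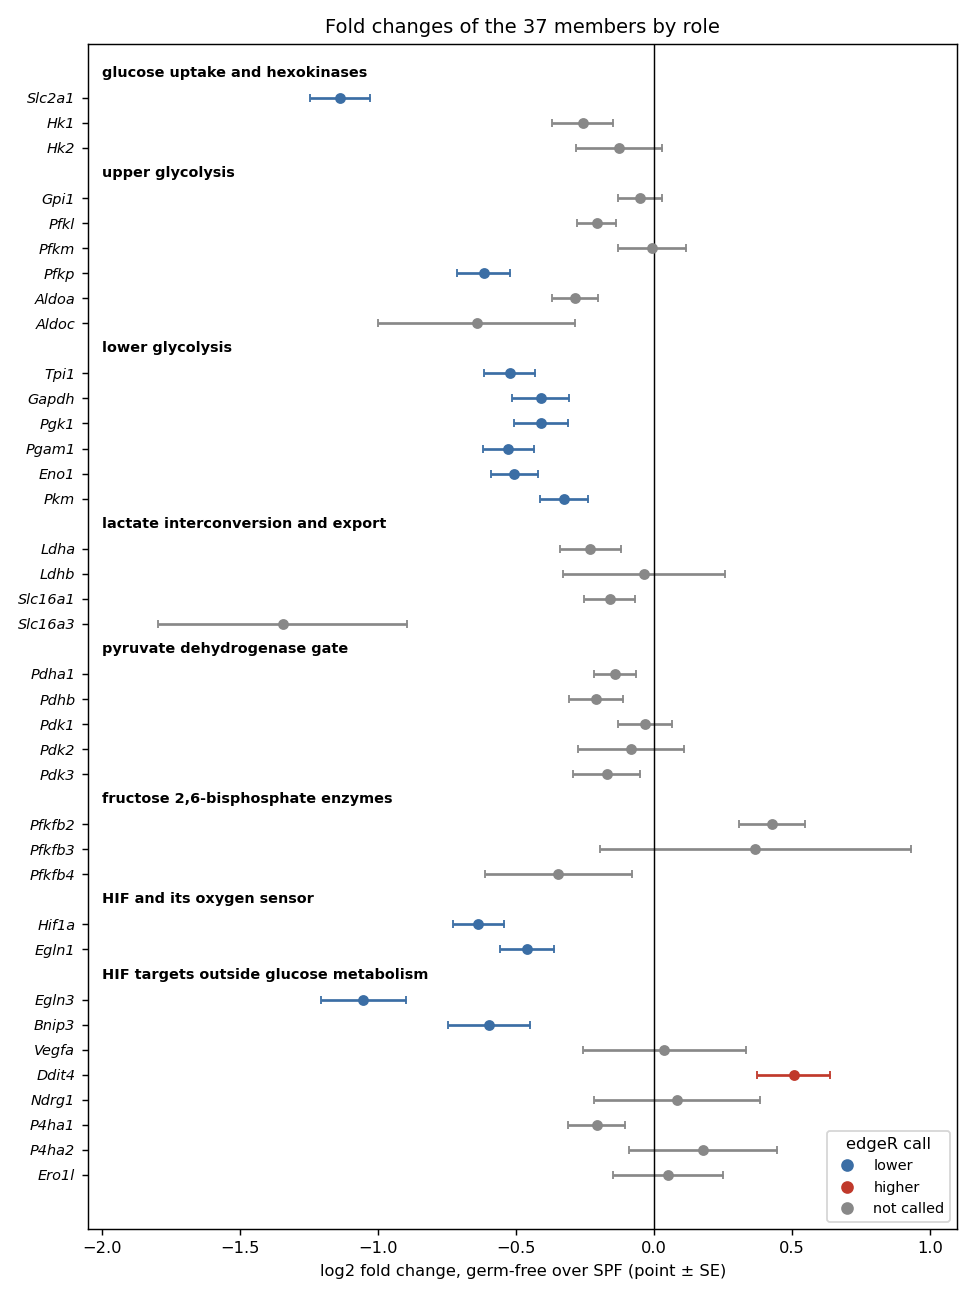
Fold change of each of the 37 genes, grouped by role; the horizontal axis is the log2 fold change of germ-free over SPF, points are edgeR estimates and bars are ± SE. Blue points mark the 12 genes called lower, the red point marks Ddit4, and all 6 genes of lower glycolysis are blue.

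The 17 genes of glucose uptake, glycolysis and lactate dehydrogenase all had log2 fold changes below 0, with a median of -0.325. Of these, 8 were called lower (47.1%, against 2.33% of all tested genes) and 0 were called higher. Every germ-free library lay below every SPF library in 10 of the 17, against 6.84% of all tested genes. Among the 8 HIF targets outside glucose metabolism, 2 were called lower (25%, against 2.33% of all tested genes). In the same 8, 1 was called higher (12.5%, against 1.85%), and the median was 0.0445 with 3 of 8 below 0. Egln1, also called lower, was listed with Hif1a and is not among these 8. The shares depend on how the lists were drawn. The difference between the shares of these gene sets was not tested.

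Slc2a1 (ENSMUSG00000028645, chr4:119108711-119137983 on GRCm38) encodes the glucose transporter of basal epithelial cells. Its level was 352, 292, 339 and 407 CPM in SPF 1, 3, 4 and 5, and 155, 177, 138 and 163 CPM in germ-free 1 to 4. The lowest SPF library stood well above the highest germ-free library. The log2 fold change was -1.14 ± 0.11, a 2.2-fold lower level (adjusted p = 0.000111, edgeR), and this was the smallest p among the 37 genes. The hexokinases trap glucose in the cell by phosphorylation. Hk1 ranged from 291 to 354 CPM in SPF and from 241 to 326 CPM in germ-free libraries, and its log2 fold change was -0.26 ± 0.11 (adjusted p = 0.213, edgeR). Hk2 ranged from 78.7 to 124 CPM and from 74.9 to 105 CPM. Its fold change was -0.13 ± 0.15 (95% interval -0.43 to 0.18), so both groups overlapped for both hexokinases and neither was called.

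In upper glycolysis, the steps from glucose phosphate to triose phosphates, Pfkp was called and the other 5 genes were not. Pfkp (ENSMUSG00000021196, chr13:6579768-6648777) is the platelet-type subunit of phosphofructokinase, which commits sugar to glycolysis. It measured 308, 295, 297 and 301 CPM in SPF 1, 3, 4 and 5, with an SD of 5.6 CPM. In germ-free 1 to 4 it measured 176, 230.0, 170.3 and 206 CPM. All germ-free libraries were lower, with a log2 fold change of -0.62 ± 0.10 (adjusted p = 0.00413, edgeR). Exons of Pfkp overlap those of Pitrm1 on the opposite strand over 5.58% of their bases, and Pitrm1 averaged 75.1 CPM. The liver-type subunit Pfkl measured 174 to 186 CPM in SPF and 149 to 161 CPM in germ-free libraries, without overlap, and missed the threshold at -0.21 ± 0.07 (adjusted p = 0.122, edgeR). The muscle-type subunit Pfkm was at 25.9 to 29.8 CPM and 22.9 to 29.4 CPM, with a log2 fold change of -0.01 (95% interval -0.25 to 0.23).

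Aldolase cleaves the doubly phosphorylated sugar. Aldoa measured 376 to 438 CPM in SPF and 323 to 356 CPM in germ-free libraries, without overlap, and its log2 fold change was -0.28 ± 0.08 (adjusted p = 0.0741, edgeR). A further table row of the same name (ENSMUSG00000114515) held 2 to 21 counts per library and was not called. Aldoc, the brain-type aldolase, measured 4.31 to 7.02 CPM and 2.06 to 5.05 CPM, with overlap (-0.64 ± 0.36, adjusted p = 0.342, edgeR). The isomerase Gpi1 ranged from 316 to 355 CPM and from 309.9 to 347 CPM, at -0.05 (95% interval -0.21 to 0.11).

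All 6 genes of lower glycolysis, from triose phosphate to pyruvate, were called lower (100%, against 2.33% of all tested genes). Their median log2 fold change was -0.457. Eno1 (chr4:150236721-150248879), the enolase of most tissues, measured 340.0, 345, 344 and 359 CPM in SPF 1, 3, 4 and 5 and 269.9, 239, 256 and 213 CPM in germ-free 1 to 4. The fall was -0.50 ± 0.09 (adjusted p = 0.00663, edgeR) and germ-free 4 was the lowest library. Pgam1 (chr19:41911923-41918660), phosphoglycerate mutase, measured 147, 161, 174 and 188 CPM in the SPF libraries in that order, and 121, 113, 125 and 106 CPM in the germ-free ones. The groups did not overlap (-0.53 ± 0.09, adjusted p = 0.00671, edgeR). Tpi1 (chr6:124810586-124814296), triose phosphate isomerase, measured 172, 171, 162 and 194 CPM in SPF and 131, 126, 127 and 103 CPM in germ-free libraries. Germ-free 4 was again the lowest, and the fall was -0.52 ± 0.09 (adjusted p = 0.00716, edgeR).

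The other 3 genes of lower glycolysis fell by less. Pgk1 (chrX:106187100-106203699), phosphoglycerate kinase, makes the first ATP of the pathway. It measured 157, 163, 195 and 199 CPM in SPF 1, 3, 4 and 5 and 147, 128, 139.8 and 123 CPM in germ-free 1 to 4. SPF 1 and germ-free 1 came close to each other, and the fall was -0.41 ± 0.10 (adjusted p = 0.0311, edgeR). Gapdh (chr6:125161715-125166467), the dehydrogenase often used as a reference gene, measured 385, 351, 384 and 436 CPM in SPF and 336, 246, 303 and 286 CPM in germ-free libraries. Its log2 fold change was -0.41 ± 0.10 (adjusted p = 0.0404, edgeR). Pkm (chr9:59656368-59679375), pyruvate kinase, measured 910.1, 945, 949.8 and 1010.1 CPM in SPF and 825, 751, 790.5 and 679 CPM in germ-free libraries. Its fall was -0.33 ± 0.09 (adjusted p = 0.0497, edgeR), and 15.3% of its exon bases are shared with Gm49759 on the same strand, which averaged 37.3 CPM.

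Over fits that left out 1 library, 152 to 402 of all tested genes were called lower, against 352 with all 8 libraries. The calls above split by their adjusted p in the full fit, 0.00716 or less against 0.0311 or more. Slc2a1, Pfkp, Tpi1, Pgam1 and Eno1 kept theirs in all 8 such fits, with adjusted p up to 0.00101, 0.0177, 0.0277, 0.0302 and 0.0242. Pgk1 and Pkm kept theirs in 2 of 8, without SPF 1 or germ-free 1. Leaving out any of the other 6 libraries (SPF 3, 4 or 5, germ-free 2, 3 or 4) gave adjusted p from 0.0567 to 0.103 for Pgk1 and from 0.0657 to 0.152 for Pkm. Gapdh kept its call in 1 of 8, without germ-free 1, and reached adjusted p of 0.0531 to 0.114 without any of the other 7 libraries. The sign stayed negative in every fit, with log2 fold changes of -0.499 to -0.336 for Gapdh, -0.474 to -0.354 for Pgk1 and -0.381 to -0.275 for Pkm.

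**Figure D2:**
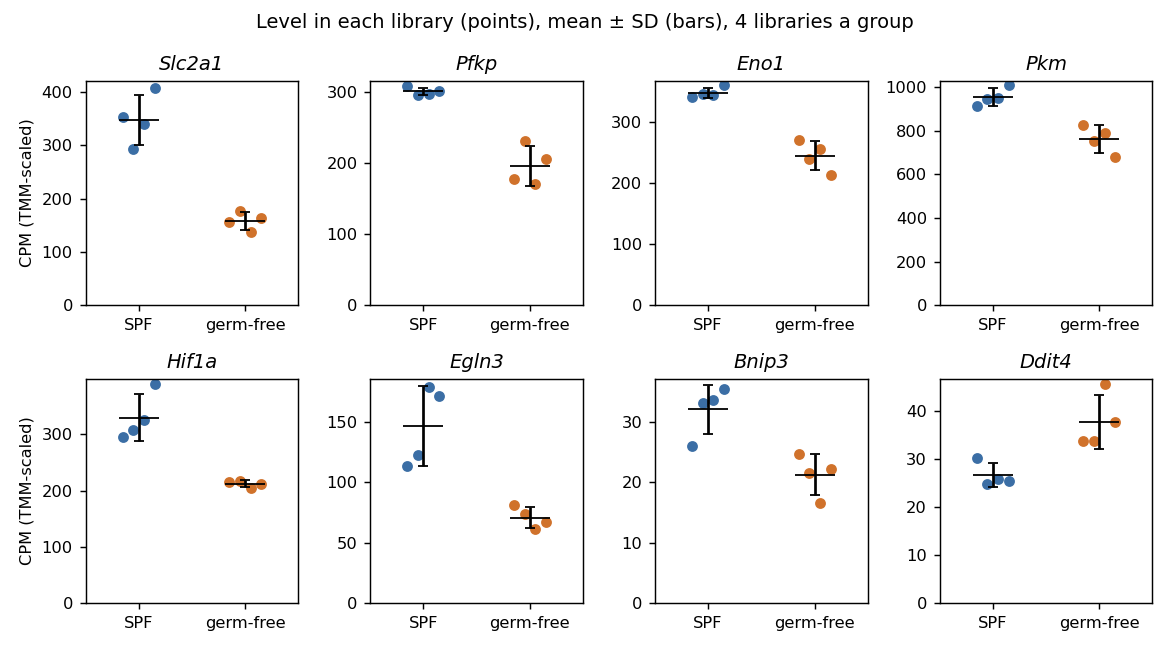
Level of 8 genes in each library in CPM on axes that start at 0; points are the 4 libraries of a group, and black marks are the mean ± SD. Slc2a1 in germ-free libraries stays at or below 177 CPM where SPF libraries are at or above 292 CPM, and Ddit4 is the panel in which germ-free libraries are higher.

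Lactate formation and export showed no called gene among 4. Ldha, the muscle-type lactate dehydrogenase that favours lactate, measured 439.5, 443, 519.5 and 522 CPM in SPF 1, 3, 4 and 5 and 458, 327, 423 and 433 CPM in germ-free 1 to 4. Germ-free 1 lay above SPF 1 and SPF 3, and the log2 fold change was -0.23 ± 0.11 (adjusted p = 0.270, edgeR). Ldhb, the heart-type subunit, measured 5.29 to 13.1 CPM and 7.13 to 10.6 CPM, at -0.04 (95% interval -0.61 to 0.54). Slc16a1, a monocarboxylate transporter that moves lactate either way, ranged from 98.9 to 126 CPM in SPF and from 93.6 to 107 CPM in germ-free libraries (-0.16 ± 0.09, adjusted p = 0.356, edgeR).

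Slc16a3, the lactate exporter of strongly glycolytic cells and a known HIF target, was scarce. It measured 2.95, 3.63, 7.1 and 6.41 CPM in SPF 1, 3, 4 and 5 and 1.1, 2.44, 3.26 and 1.02 CPM in germ-free 1 to 4. Germ-free 3 lay above SPF 1, and the log2 fold change of -1.34 ± 0.45 missed the threshold (adjusted p = 0.115, edgeR; 95% interval -2.23 to -0.46). In the authors' deposited table its adjusted p was 0.0600.

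The pyruvate dehydrogenase gate, which turns pyruvate into acetyl-CoA inside mitochondria, had 0 called genes of 5. The subunit Pdha1 measured 239.7 to 246 CPM in SPF and 207 to 232 CPM in germ-free libraries, and Pdhb 57.1 to 63.9 CPM and 46.5 to 56.3 CPM. In both, every germ-free library lay below every SPF library, as in 6.84% of all tested genes. The fold changes were -0.14 ± 0.08 and -0.21 ± 0.10 (adjusted p = 0.324 and 0.258, edgeR). The kinases that shut the gate overlapped between groups, with Pdk1, a HIF target, at 60.5 to 77.2 CPM and 62.9 to 68.4 CPM (-0.03, 95% interval -0.22 to 0.16). Pdk2 was at 11 to 17.2 CPM and 11.6 to 15 CPM, and Pdk3 at 51.1 to 62.8 CPM and 43.2 to 57.8 CPM.

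The PFKFB enzymes make and remove the sugar bisphosphate that switches phosphofructokinase on, and 0 of 3 were called. Pfkfb2 measured 18.9, 22.6, 22.3 and 24.1 CPM in SPF 1, 3, 4 and 5 and 30.8, 29.4, 28.8 and 29.4 CPM in germ-free 1 to 4. All germ-free libraries were higher, against the direction of the glycolytic enzymes, and the fold change of 0.43 ± 0.12 just missed the threshold (adjusted p = 0.0637, edgeR). The adjusted p in the authors' deposited table was 0.0313. Pfkfb3, the isoform induced by hypoxia, ranged widely within both groups, from 3.46 to 14.7 CPM and from 3.53 to 20.5 CPM (0.37 ± 0.56, adjusted p = 0.778, edgeR). Pfkfb4 was at 5.19 to 11.1 CPM and 5.15 to 6.78 CPM (-0.35 ± 0.27, adjusted p = 0.517, edgeR).

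Per kilobase of annotated exon, the level of Pkm was 191 CPM per kb in SPF and 152 in germ-free libraries, the highest of the pathway. Ldha followed at 145 and 124 CPM per kb and Aldoa at 140.2 and 115 CPM per kb. Slc2a1 stood at 99.2 ± 13.4 CPM per kb (SD, n = 4) in SPF, above Gapdh at 94.1 ± 8.43 by less than the spread between libraries, and at 45.1 ± 4.69 in germ-free libraries. Germ-free Slc2a1 thus sat at the level of germ-free Eno1 (45.5 CPM per kb) and Tpi1 (44.2 CPM per kb), where SPF Slc2a1 had been above SPF Eno1 (64.5) and Tpi1 (63.5). Slc16a3 was the scarcest, at 0.944 and 0.368 CPM per kb.

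**Figure D3:**
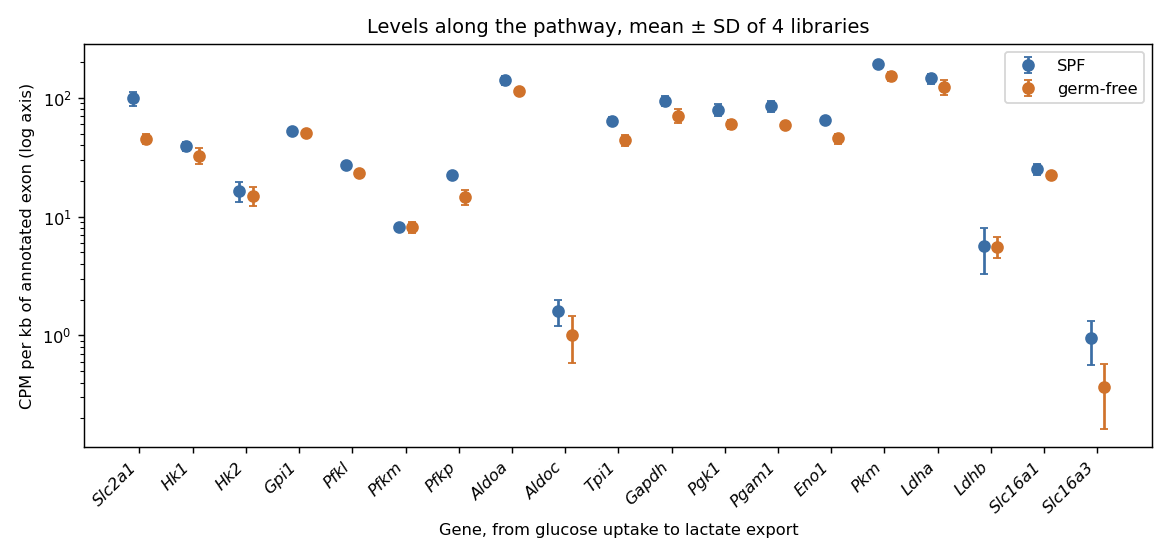
Level of the 19 genes from glucose uptake to lactate export in CPM per kilobase of annotated exon on a log axis; points are group means and bars are SD over 4 libraries. Pkm is highest and Slc16a3 lowest in both groups, and the widest gap among the abundant genes is at Slc2a1, from 99.2 to 45.1 CPM per kb.

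Hif1a and Egln1 were both called lower (100%, against 2.33% of all tested genes). Hif1a (ENSMUSG00000021109, chr12:73901375-73947530) encodes the oxygen-regulated alpha subunit, whose protein level is set mainly by its destruction and was not measured. Its RNA measured 295, 308, 325 and 389.6 CPM in SPF 1, 3, 4 and 5 and 216, 218, 204 and 211 CPM in germ-free 1 to 4. Germ-free libraries lay close together (212 ± 6.25 CPM, SD, n = 4), all below SPF, and the fall was -0.64 ± 0.09 (adjusted p = 0.00275, edgeR). Egln1 (chr8:124908587-124949324), the main hydroxylase that marks HIF for destruction, measured 127, 147, 153 and 166 CPM in SPF and 121, 113, 99.6 and 98.8 CPM in germ-free libraries. It fell by 0.46 ± 0.10 on the log2 scale (adjusted p = 0.0202, edgeR). For both genes every germ-free library lay below every SPF library, which held for 6.84% of all tested genes.

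Among HIF targets outside glucose metabolism, Egln3 and Bnip3 were called lower. Egln3 (chr12:54178981-54203860), a hydroxylase that HIF itself induces, measured 114, 122, 179 and 171 CPM in SPF 1, 3, 4 and 5 and 81.2, 73.4, 61.1 and 67.4 CPM in germ-free 1 to 4. Its fall of -1.05 ± 0.15 (2.07-fold, adjusted p = 0.00512, edgeR) was second in size to Slc2a1 among the 13 called genes. Bnip3 (chr7:138890836-138909519), a mitophagy receptor, measured 26.1, 33, 33.7 and 35.4 CPM in SPF and 24.7, 21.5, 16.6 and 22.1 CPM in germ-free libraries. SPF 1 and germ-free 1 nearly met, and the fall was -0.60 ± 0.15 (adjusted p = 0.0377, edgeR).

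Ddit4 (chr10:59949669-59951834) encodes an inhibitor of the growth kinase mTORC1 and is induced by HIF, glucocorticoids and energy stress. It measured 30.2, 24.8, 25.7 and 25.5 CPM in SPF 1, 3, 4 and 5 and 33.7, 33.7, 45.6 and 37.7 CPM in germ-free 1 to 4. Every germ-free library was higher, opposite to Egln3 and Bnip3, with a rise of 0.51 ± 0.13 (adjusted p = 0.0442, edgeR).

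The other 5 targets were not called, and their groups overlapped. Vegfa, the vessel growth factor, measured 32.6, 42.9, 50.5 and 43.6 CPM in SPF and 23.1, 36.4, 51.9 and 63.3 CPM in germ-free libraries, so the lowest and the highest value were both germ-free (0.04 ± 0.29, 95% interval -0.54 to 0.62). Ndrg1, a stress and differentiation gene, ranged from 34 to 78.6 CPM and from 46.3 to 85.1 CPM (0.08, 95% interval -0.51 to 0.67). Ero1l, an oxidase of disulfide formation, ranged from 19.7 to 36.5 CPM and from 20.1 to 31.1 CPM (0.05, 95% interval -0.34 to 0.44). These intervals are wide enough to hold a fall as large as that of Pgk1 for Vegfa and Ndrg1 but not for Ero1l. The collagen hydroxylase subunit P4ha1 ranged from 82.5 to 88 CPM and from 64.7 to 84 CPM (-0.21 ± 0.10, adjusted p = 0.290, edgeR). P4ha2 ranged from 12.1 to 32.9 CPM and from 22.1 to 31.5 CPM (0.18 ± 0.27, adjusted p = 0.771, edgeR).

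Hif1a and Egln3 kept their calls in all 8 fits that left out 1 library (adjusted p up to 0.0135 and 0.0270). Egln1 and Ddit4 kept theirs in 3 of 8, and without SPF 3, 4 or 5 or germ-free 3 or 4 the adjusted p was 0.0587 to 0.0698 for Egln1 and 0.104 to 0.144 for Ddit4. Bnip3 kept its call in 2 of 8, with adjusted p of 0.069 to 0.114 without SPF 3, 4 or 5 or germ-free 2, 3 or 4. Median log2 fold changes of the 8 targets outside glucose metabolism ran from -0.121 to 0.128 in these fits and changed sign, being below 0 without SPF 1, germ-free 3 or germ-free 4. The corresponding median of the 17 uptake and glycolysis genes stayed between -0.381 and -0.275.

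A longer list of HIF genes was set beside these. Of 21 further HIF targets tested, 1 was called lower (4.76%, against 2.33% of all tested genes) and 0 higher. Fold changes were below 0 in 12, against 47.1% of all tested genes, with a median of -0.0817. The called gene was Fam162a, a mitochondrial protein induced by hypoxia. Fam162a measured 280.3, 251, 279 and 299 CPM in SPF 1, 3, 4 and 5 and 178, 145, 159 and 158 CPM in germ-free 1 to 4, without overlap (-0.79 ± 0.09, adjusted p = 0.000374, edgeR), and it kept its call in all 8 fits. In 6 of the 21 the unadjusted p was under 0.05. No share over all tested genes is given for that limit, here or in the lists below. In 4 of the 21 every germ-free library lay below every SPF library, against 6.84% of all tested genes. In 0 did every one lie above, against 6.24%. Plin2, a lipid droplet protein, and Higd1a, a mitochondrial protein, came nearest to the threshold, at -0.60 ± 0.16 and -0.56 ± 0.15 (adjusted p = 0.0545 and 0.0556, edgeR). Both lie outside the naming rule and were named after their values were seen.

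Of 7 further HIF subunits and regulators tested, 1 was called, and it was higher (14.3%, against 1.85% of all tested genes). Epas1 encodes the alternative alpha subunit, abundant in vessel walls. It measured 182, 171, 174 and 118 CPM in SPF 1, 3, 4 and 5 and 239, 259.9, 279.8 and 285 CPM in germ-free 1 to 4. All germ-free libraries were higher (0.72 ± 0.12, adjusted p = 0.00710, edgeR), opposite to Hif1a. The endothelial markers moved the same way, summing to 7.63, 6.16, 10.8 and 4.3 CPM in SPF 1, 3, 4 and 5. In germ-free 1 to 4 they summed to 16.6, 38.9, 111 and 11.3 CPM. SPF 4 and germ-free 4 had near sums, 10.8 and 11.3 CPM, with Epas1 at 174 and 285 CPM. Germ-free 4, with the lowest germ-free sum, had the highest Epas1. With the summed stromal markers as a covariate the rise was 0.641 and no longer called (adjusted p = 0.0656, unadjusted p = 0.00075, edgeR). The part of the endothelial markers in it was not tested.

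**Figure D4:**
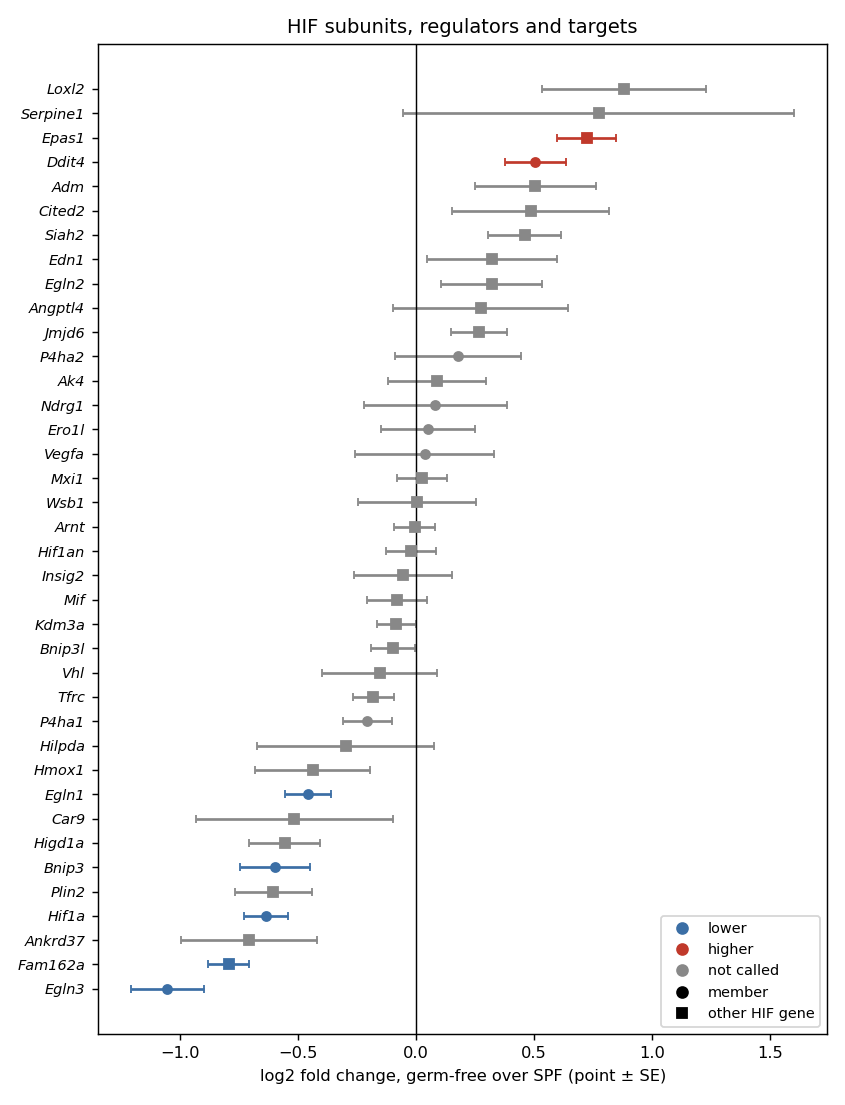
Log2 fold change of germ-free over SPF for the HIF subunits, regulators and targets that were tested, sorted; points are edgeR estimates and bars are ± SE, circles are genes of the 37 and squares are further HIF genes. Hif1a, Egln1, Egln3, Bnip3 and Fam162a are marked lower, Ddit4 and Epas1 higher, and most others lie near 0.

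In 6 lists of pathways that meet glycolysis, 2 of 62 tested genes were called lower (3.23%, near the 2.33% of all tested genes) and 0 higher. Of 15 further glucose transporters, glycolytic paralogs and lactate carriers tested, 0 were called by edgeR, and 3 had an unadjusted p under 0.05. The smallest p was that of Slc2a12 (23.7 to 53 CPM in SPF, 19 to 25.7 CPM in germ-free libraries; -0.64 ± 0.22, adjusted p = 0.129). Of 10 genes of mitochondrial pyruvate entry, 0 were called and 2 had an unadjusted p under 0.05. Pdpr, which regulates the phosphatase that reopens the dehydrogenase gate, measured 32.8 to 38.4 CPM in SPF and 40.6 to 50.3 CPM in germ-free libraries (0.39 ± 0.11, adjusted p = 0.0620, edgeR).

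In the citric acid cycle 12 of 13 genes had fold changes below 0, where 47.1% of all tested genes did. The median of the 13 was -0.176, and 1 was called lower (7.69%, against 2.33% of all tested genes). Cs, citrate synthase, measured 347, 310.2, 326 and 373 CPM in SPF and 290.0, 245, 267 and 253 CPM in germ-free libraries (-0.36 ± 0.09, adjusted p = 0.0332, edgeR). That call was kept in 1 of 8 fits, without germ-free 1, and its adjusted p was 0.0519 to 0.102 without any of the other 7 libraries. In glycogen metabolism 1 of 9 genes was called lower (11.1%, against 2.33% of all tested genes). Pygl, the liver-type phosphorylase that frees glucose from glycogen, measured 17.8, 20.6, 18.2 and 32.6 CPM in SPF 1, 3, 4 and 5 and 11.1, 9.7, 8.89 and 8.64 CPM in germ-free 1 to 4. SPF 5 was far above the other SPF libraries, and without it the fall of -1.22 ± 0.21 (adjusted p = 0.00667, edgeR) was -0.978 (adjusted p = 0.0188, edgeR). With the stromal covariate it was -1.07 and no longer called (adjusted p = 0.0889, unadjusted p = 0.00152, edgeR).

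The pentose phosphate pathway had 0 called genes of 8 by edgeR, and 1 with an unadjusted p under 0.05. That was its entry enzyme G6pdx, at 124 to 153 CPM in SPF and 94.2 to 119 CPM in germ-free libraries (-0.30 ± 0.09, adjusted p = 0.0978, edgeR). Of 7 glucose-sensing and MYC factors 0 were called by edgeR, and 3 had an unadjusted p under 0.05. Arrdc4, a glucose-induced arrestin, had the smallest p (49.96 to 73.6 CPM and 45.2 to 58.8 CPM; -0.30 ± 0.13, adjusted p = 0.203). Myc itself measured 157 to 167 CPM in SPF and 164 to 193 CPM in germ-free libraries (0.11 ± 0.08, adjusted p = 0.483, edgeR), and it was named after its values were seen.

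Ratios between paralogs within a library do not depend on library scaling, and 8 were compared. The Pfkp to Pfkl ratio was 1.755, 1.609, 1.596 and 1.725 in SPF 1, 3, 4 and 5 and 1.097, 1.46, 1.099 and 1.38 in germ-free 1 to 4. Every germ-free ratio was lower, by 0.42 on average on the log2 scale (exact two-sided permutation test, p = 0.0286, the smallest that 4 against 4 can give; 0.152 after Benjamini-Hochberg adjustment over 8 ratios). The Slc16a3 to Slc16a1 ratio differed by -1.29 and the Pfkm to Pfkl ratio by 0.19 on the log2 scale, with overlap (exact permutation p = 0.0571 for each, adjusted p = 0.152). The Hk1 to Hk2, Aldoc to Aldoa, Ldha to Ldhb, Pdk2 to Pdk1 and P4ha2 to P4ha1 ratios overlapped, with exact permutation p from 0.257 to 0.857. None of the 8 passed the adjustment.

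The libraries within a group also differed for these genes. SPF 1 had the lowest SPF value for 20 of the 37 genes and SPF 5 the highest for 19. Germ-free 4 had the lowest germ-free value for 14 genes and germ-free 1 the highest for 14. SPF 1 was the lowest SPF library for Pfkfb3, Vegfa, Ndrg1 and P4ha2 (3.46, 32.6, 34 and 12.1 CPM). Germ-free 1 was the lowest germ-free library for Pfkfb3, Vegfa and Ndrg1 (3.53, 23.1 and 46.3 CPM), whereas its Slc2a1, Hif1a and Eno1 levels lay within or above the range of the other germ-free libraries.

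**Figure D5:**
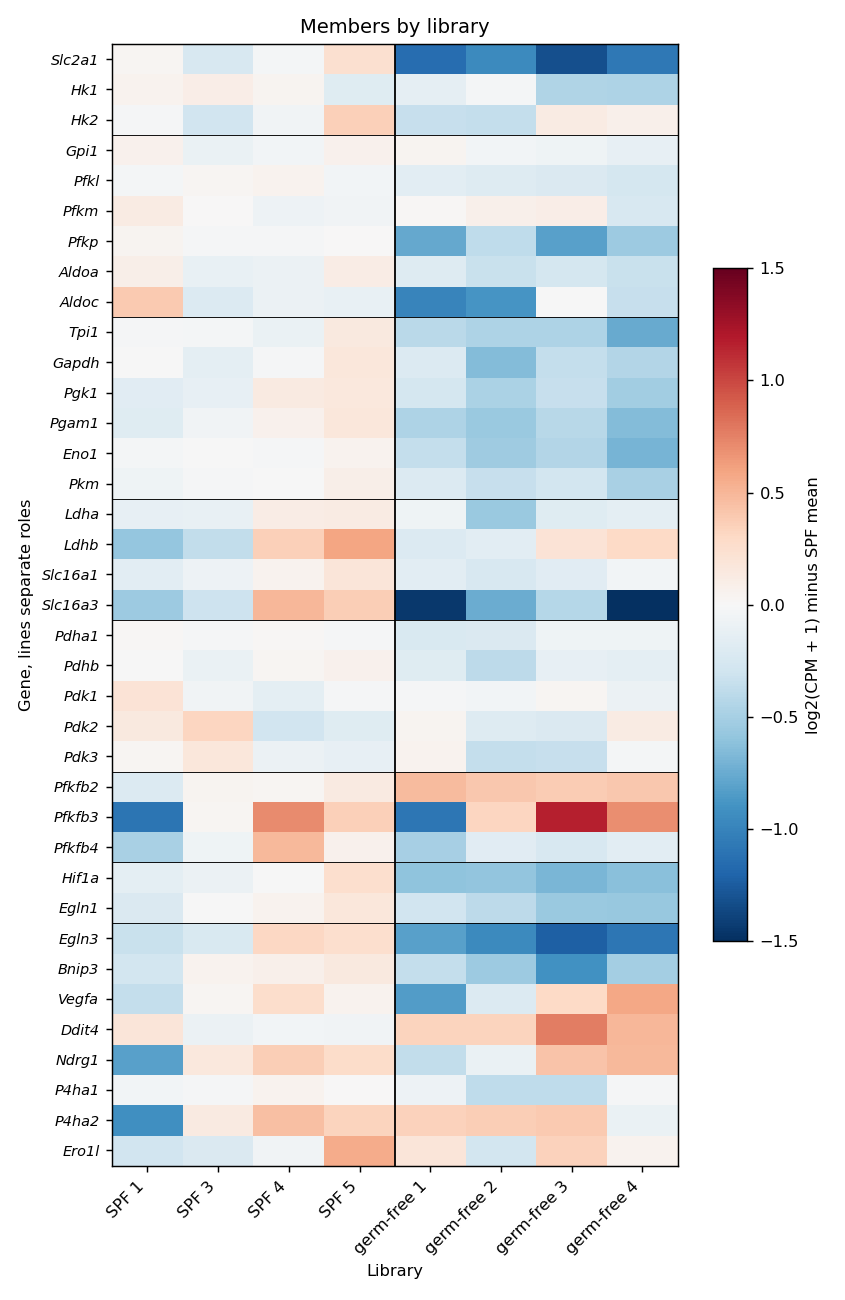
The 37 genes in the 8 libraries, as log2(CPM + 1) minus the SPF mean of the gene; blue is lower and red is higher, colours saturate at 1.5 in either direction, and lines separate roles. The rows of lower glycolysis are blue in all 4 germ-free libraries, and Pfkfb3, Vegfa and Ndrg1 are blue in SPF 1 and germ-free 1.

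With the summed stromal markers as a covariate, 4 of the 12 lower calls were kept (Slc2a1, Pgam1, Hif1a and Egln3) and Ddit4 was not called. The stromal sums of SPF and germ-free libraries met only at 177 CPM, so this fit separates group from stromal sum poorly. All 13 genes still had an unadjusted p under 0.05 in that fit. The median size of their log2 fold changes was 0.532, where it had been 0.521, and the median standard error was 0.121, where it had been 0.0973. Single genes moved unequally. Sizes became smaller for Slc2a1, Pfkp, Gapdh, Hif1a, Egln1, Egln3, Bnip3 and Ddit4, and larger for Tpi1, Pgk1, Pgam1, Eno1 and Pkm. Bnip3 went from -0.597 to -0.409 and Ddit4 from 0.506 to 0.347, while Pgam1 went from -0.526 to -0.567. Without germ-free 3, the library with the highest stromal and endothelial sums, 7 genes were called lower (Slc2a1, Pfkp, Tpi1, Pgam1, Eno1, Hif1a and Egln3) and 0 were called higher. The median size of the log2 fold changes of the 13 genes was then 0.527, and leaving out SPF 3, SPF 4, SPF 5 or germ-free 4 in its place gave the same 7 genes.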

How the data were processed

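Gene counts for 8 libraries, 4 SPF and 4 germ-free, were taken from the deposited table; per the file headers these counts were raw. The submitters' processing notes name DESeq2 1.22.2, HTSeq 0.6.0, TopHat2 2.1.1, cutadapt 1.18 and bcl2fastq 2.18.0.12 without their roles, and the build GRCm38. Whether reads were counted by strand is not stated there, so values of overlapping genes are uncertain. Per the file headers, the authors' normalized signals were counts over DESeq2 size factors, and the authors also deposited log2 fold changes of SPF over germ-free, a Wald score, and p-values, which 22819 genes had.

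Genes passing filterByExpr (minimum count 10, total 15, smallest group 4) were scaled by TMM and tested with edgeR 4.0.16 in R 4.3.3 (glmQLFit, robust; quasi-likelihood F test; prior count 0.125). A gene was called at a Benjamini-Hochberg adjusted p under 0.05, and "not called" means no call by this test. SE is the fold change over the root of F. Alternatives used DESeq2 1.42.0, limma 3.58.1, other scalings, no filter, a replicate block, a stromal covariate and fits without 1 library. The 37 genes and the lists were chosen with earlier results of these data known. All 37 genes were to be accounted for, and in other lists the called genes, or else the gene with the smallest p, were named. Exon lengths and overlaps came from GENCODE M21, whose start and end matched the table for all 37 genes. Smallest CPM steps were 0.064 to 0.102 per count. The 95% intervals are for the log2 fold change, from its SE and a normal quantile, and can be narrower than the F test implies. For Ldha the interval was -0.445 to -0.0142, where the unadjusted p of the F test was 0.0556.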

Additional observations from a re-analysis of the deposited data

Results flagged for a closer look

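Of 90 groups of 4 libraries checked over 45 genes, 3 held a library whose gap to the nearest other was larger than Dixon's test allows. Chance flags about 1 in 20 such groups. Aldoc stood at 7.022 CPM in SPF 1, where the other SPF libraries lay between 4.311 and 4.735 CPM. P4ha2 stood at 22.1 CPM in germ-free 4, where the others lay between 30.67 and 31.53 CPM. Epas1 stood at 117.6 CPM in SPF 5, where the others lay between 171.3 and 181.6 CPM. Without SPF 5 the Epas1 rise was 0.596 on the log2 scale (adjusted p = 0.00648, edgeR), so its call did not need that library. Aldoc and P4ha2 were not called in the comparison of all 8 libraries.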

How the results depend on the processing

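No call changed sign; the median of the 8 HIF targets outside glucose metabolism did, reaching -0.0731 with the stromal covariate. Over fits without 1 library, 152 to 402 genes of all tested were called lower and 128 to 286 higher, and among the 37 genes 7 to 12 lower and 0 to 1 higher. For uptake and glycolysis genes the lower calls ran from 5 to 8, and for HIF targets outside glucose metabolism from 1 to 2 lower and 0 to 1 higher. DESeq2 called 659 genes lower and 598 higher, with 14 lower and 2 higher among the 37 (adding Aldoa, Slc16a3 and Pfkfb2), and limma voom called 568 and 455, with 13 and 1 (adding Hk1). Without a filter the 37 genes gave 12 lower and 0 higher, since Ddit4, the 1 higher target, was lost. Upper-quartile scaling lost Pkm. With the stromal covariate 49 genes were called lower and 58 higher, 4 lower and 0 higher among the 37, of which 2 were uptake and glycolysis genes, and 1 lower and 0 higher were HIF targets outside glucose metabolism. The cause of these changes was not tested.

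Replicate numbers 1, 3 and 4 recur in both groups, and the labels do not say what the numbers stand for. Deviations from the group mean correlated at 0.192, -0.0821 and -0.0749 between same-numbered libraries. Pairs with different numbers ran from -0.184 to 0.194. Whether same-numbered libraries share a batch was not tested. Number 5 occurs only in SPF and number 2 only in germ-free mice. A block on the number therefore leaves SPF 5 and germ-free 2 out of the group difference. With the replicate number as a block, 161 genes were called lower and 172 higher, and 6 lower and 0 higher among the 37: 4 uptake and glycolysis genes, Hif1a, and 1 lower and 0 higher HIF targets outside glucose metabolism. Genes with few counts, such as Slc16a3, Aldoc and Ldhb, had standard errors of 0.29 to 0.45, which limits what could be called.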
